A study of Mus musculus with 14 samples.

Results

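The genes described here are 10 members of the ADAMTS family measured in the mouse left ventricle: Adamts1, Adamts2, Adamts4, Adamts5, Adamts8, Adamts9, Adamts10, Adamts12, Adamts15 and Adamtsl2. They were taken by gene name from a table of 49315 genes, and all 10 were among the 15292 genes with enough reads for a test. Poly(A) RNA was sequenced from shock-frozen left ventricles of male mice, which had surgery when 10 to 12 weeks old and were analysed 5 weeks later. WT mice and HCN4F mice, which carry a gain-of-function knock-in of the pacemaker channel gene Hcn4, underwent either transverse aortic constriction (TAC), which narrows the aorta and loads the left ventricle with pressure, or a Sham operation without the constriction. The libraries were 4 WT-Sham, 4 HCN4F-Sham, 2 WT-TAC (replicates 2 and 3) and 4 HCN4F-TAC. The knock-in is carried by every cell of the animal, and the zygosity is not given in the sources used here. The libraries of a group are described as biological replicates.

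ADAMTS proteins are secreted zinc metalloproteinases that work in the extracellular matrix, where a chain of thrombospondin repeats places them on their targets. The family divides by substrate. The proteoglycanases cut large chondroitin sulfate proteoglycans such as versican and aggrecan, the procollagen N-propeptidases trim fibrillar collagens before they assemble, and other members are tied to fibrillin microfibrils or to cartilage oligomeric matrix protein. ADAMTS-like proteins share the thrombospondin repeats and lack the protease. In the heart, versican turnover by ADAMTS proteases is best known from the developing valves and chambers, and the matrix is remodelled again under pressure load.

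The difference between protease and ADAMTS-like member can be read from the genes themselves. In the GENCODE annotation of GRCm38, 1 coding transcript with a start codon was read per gene, by principal status and then by length. Of these 10 coding sequences, 9 held 1 copy of the zinc-binding motif of the catalytic domain, and that of Adamtsl2 held none. Over all coding transcripts with a start codon, the motif was in 1 of 8 for Adamts10 and 1 of 2 for Adamts9. The segments of the 3 proteases that passed as higher after TAC in HCN4F hearts and of Adamts5, which did not pass in any comparison, are given for comparison. Capitals mark the codons of the 3 zinc-binding histidines, the catalytic glutamate and the variable residue between the second and the last histidine, and 12 coding bases flank the motif on either side. The segment lies on 2 coding exons in each of the 9 genes, so that the coordinates include an intron.
Adamts1 (chr16:85799179-85799557, minus strand): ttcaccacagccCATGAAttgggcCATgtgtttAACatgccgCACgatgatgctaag
Adamts2 (chr11:50775391-50776146, plus strand): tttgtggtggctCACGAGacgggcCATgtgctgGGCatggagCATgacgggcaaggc
Adamts5 (chr16:85878003-85887838, minus strand): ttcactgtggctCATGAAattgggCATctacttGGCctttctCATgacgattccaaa
Adamts8 (chr9:30952709-30953390, plus strand): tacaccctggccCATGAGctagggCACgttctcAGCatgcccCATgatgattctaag
The variable codon reads asparagine in Adamts1, Adamts4, Adamts9 and Adamts15, glycine in Adamts2, Adamts5, Adamts10 and Adamts12, and serine in Adamts8. Over the 33 bases of the motif, the closest pair was Adamts4 and Adamts15 with 30 identical bases, and the most distant was Adamts9 and Adamts12 with 17.

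The members lie on 8 chromosomes. Adamts1 and Adamts5 are neighbours on chromosome 16, 53059 bases apart with 0 coding genes between them, and Adamts8 and Adamts15 are neighbours on chromosome 9, 20109 bases apart. Hcn4 is also on chromosome 9, 27.9 Mb from Adamts8.

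The 14 libraries held 22309914 to 35210939 counted reads, with a median of 27676182. Levels are CPM, read counts scaled to library size on the TMM scale of edgeR, which corrects for differences in RNA composition between libraries. The upper limit behind a count of 0 was set at 3 reads, which is 0.0859 to 0.137 CPM here and covers counting error only. Ventricular cardiomyocyte markers were abundant in every library, with a summed level over 6 genes of 43358 to 66390 CPM. In HCN4F-TAC replicate 2, 4 atrial markers summed to 31.1 CPM, against 1.24 to 5.04 CPM in the other 13 libraries. The sum of 9 immediate early genes was 72.6 to 97.3 CPM in WT-Sham and 242 to 577 CPM in the other 3 groups, so that WT-Sham stood apart in this respect. In whole ventricle, fewer cells of a type and less RNA per cell cannot be told apart.

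The members covered a wide range of levels. Per kilobase of exon, the WT-Sham mean was highest for Adamts1 at 8.16 CPM per kb, and next came Adamts2 (3.01), Adamts5 (2.64), Adamts10 (2.27), Adamts9 (1.96) and Adamtsl2 (1.84). Adamts15 (0.688), Adamts4 (0.630), Adamts8 (0.306) and Adamts12 (0.113) were the low members on this scale. In the HCN4F-TAC hearts Adamtsl2 stood second, at 6.52 CPM per kb, behind Adamts1 at 17.5 and ahead of Adamts2 at 5.10. The low members rest on few reads: Adamts8 had 21 to 137 reads per library and Adamts12 28 to 60, whereas Adamts1 had 1046 to 2949.

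**Figure D1:**
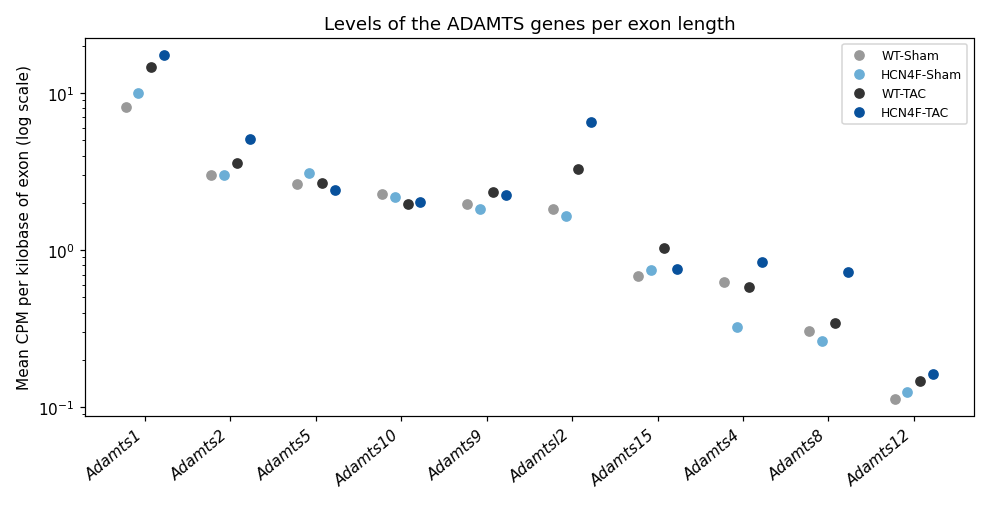
Mean CPM per kilobase of exon of each gene in the 4 groups, on a logarithmic axis, with the genes ordered by their WT-Sham level. Adamts1 is the highest gene in all 4 groups, and Adamtsl2 moves from 1.84 in WT-Sham to 6.52 in HCN4F-TAC.

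The first question was how these 10 genes respond to pressure load in each genotype. In HCN4F hearts 4 of the 10 genes were higher after TAC: the ADAMTS-like gene Adamtsl2 (3.97-fold), the proteoglycanases Adamts8 (2.78-fold) and Adamts1 (1.76-fold), and the procollagen propeptidase Adamts2 (1.69-fold). In WT hearts only Adamts1 passed, with a 1.79-fold rise. None of the 10 passed in the lower direction in either genotype. All tests are quasi-likelihood tests in edgeR, adjusted by Benjamini-Hochberg over the 15292 genes. A gene passed where the adjusted p was under 0.05, and it was called where its log2 fold change was also above 1 or below -1.

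By that rule 2 of 10 members were called higher in HCN4F hearts, where 1.58% of all tested genes were called higher and 1.16% lower, and 0 of 10 in WT hearts, where the shares were 0.445% and 0.262%. By the adjusted p alone, 4 of 10 passed as higher in HCN4F hearts against a background of 7.2%, and 1 of 10 in WT hearts against 2.92%. The members and the lists of related genes were chosen with earlier results of these data known. The shares here and below therefore describe the chosen genes and are no test of enrichment. An unadjusted p under 0.05 was found for 7 members in HCN4F hearts, where 28.3% of all tested genes had one, and for 2 in WT hearts, where 22% did. The median log2 fold change of the 10 genes was 0.56 in HCN4F hearts, beside -0.01 over all genes, and 0.26 in WT hearts, beside -0.02. The WT comparison rests on 2 TAC libraries, and its intervals are wider. The 108 genes called there over the whole table became 7 without WT-TAC replicate 3, 47 without WT-Sham replicate 4 and 49 without WT-Sham replicate 1, and the 420 called in HCN4F hearts became 273 without HCN4F-TAC replicate 2.

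**Figure D2:**
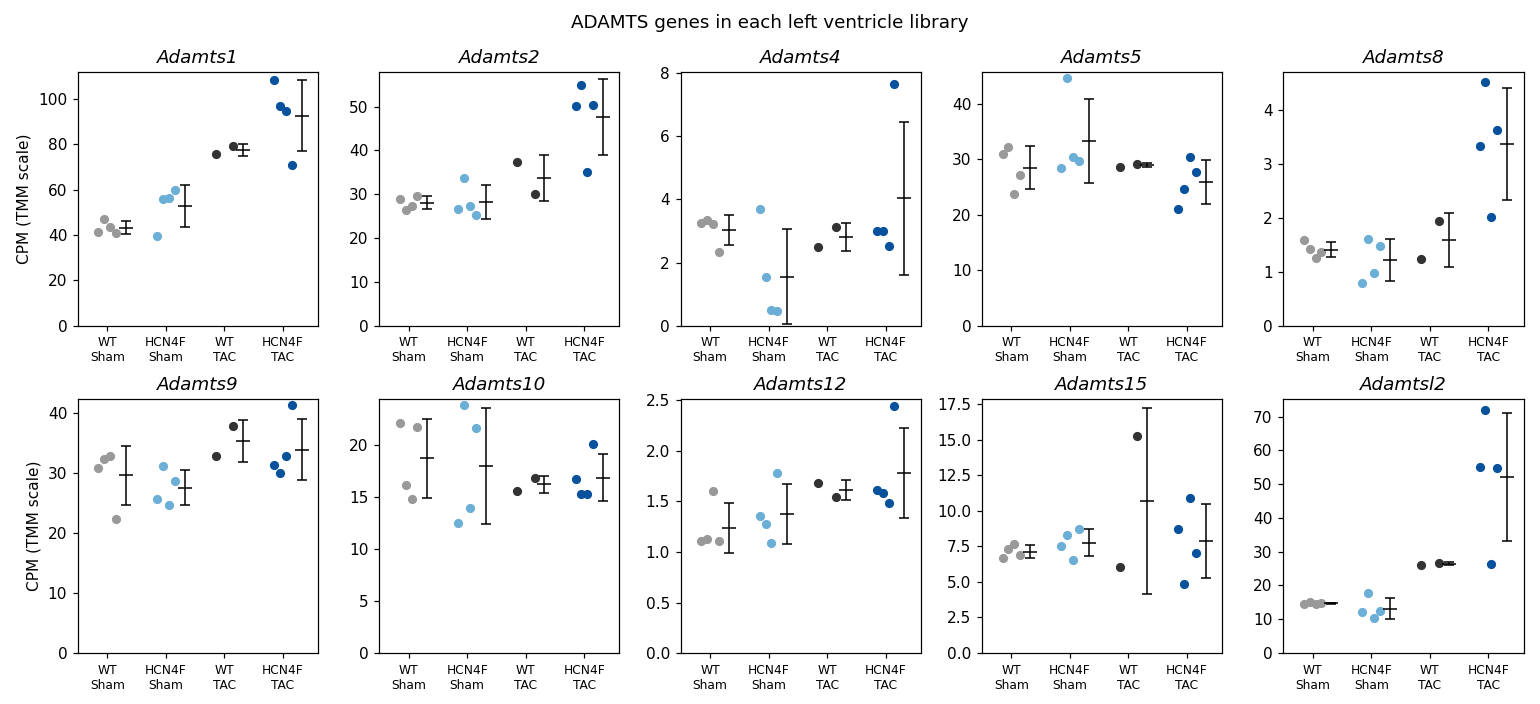
CPM of each gene in every library (points), grouped by genotype and surgery, with the group mean and SD to the right of the points (n = 4, 4, 2 and 4). The HCN4F-TAC libraries lie above both Sham groups for Adamts1, Adamts2, Adamts8 and Adamtsl2, and the 2 WT-TAC libraries lie above WT-Sham for Adamts1, Adamts2, Adamts9 and Adamtsl2.

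Adamtsl2 (chr2:27079379-27108981, plus strand) is a secreted glycoprotein that binds fibrillin and latent TGF-beta binding protein and is mutated in geleophysic dysplasia. With all libraries, it had the largest log2 fold change of the 10 genes after TAC in HCN4F hearts. Its level was 14.6, 15.0, 14.4 and 14.8 CPM in WT-Sham replicates 1 to 4 and 12.3, 17.7, 10.3 and 12.4 CPM in HCN4F-Sham replicates 1 to 4. The TAC libraries gave 26.1 and 26.7 CPM in WT replicates 2 and 3, and 55.0, 72.1, 26.5 and 54.8 CPM in HCN4F replicates 1 to 4. All 6 TAC libraries were above all 8 Sham libraries, and HCN4F-TAC replicate 3 lay at the level of the WT-TAC libraries while the other 3 were higher. The log2 fold change was 1.99 in HCN4F hearts (SE 0.25, 95% interval 1.45 to 2.53, adjusted p = 0.000375, edgeR). In WT hearts it was 0.85 (SE 0.29, interval 0.22 to 1.48) with an adjusted p of 0.113 in edgeR. That value depended on the fit, at 0.0195 in DESeq2 and 0.0107 in edgeR without HCN4F-TAC replicate 3, which shares the estimate of spread, and 0.000176 to 0.404 over all alternatives.

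Adamts8 (chr9:30942562-30963838, plus strand), a low-abundance proteoglycanase first described for its antiangiogenic activity, was the other called gene. Its level was 1.59, 1.41, 1.26 and 1.37 CPM in WT-Sham and 0.790, 1.60, 0.976 and 1.48 CPM in HCN4F-Sham replicates 1 to 4. It was 1.23 and 1.95 CPM in the WT-TAC libraries and 3.32, 4.51, 2.01 and 3.62 CPM in HCN4F-TAC replicates 1 to 4. The 4 HCN4F-TAC libraries were the highest of all 14, again with replicate 3 the lowest of them, and the WT-TAC values straddled the WT-Sham range. In HCN4F hearts the log2 fold change was 1.48 (SE 0.26, interval 0.94 to 2.02, adjusted p = 0.00138, edgeR). In WT hearts it was 0.20 (SE 0.32, adjusted p = 0.760 in edgeR), and its sign turned to -0.19 without WT-TAC replicate 3.

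Adamts1 (chr16:85793827-85803113, minus strand), a versican-cleaving protease and the most abundant member per exon length, passed in both genotypes in edgeR with all libraries. Its WT log2 fold change was close to that of Adamtsl2, which did not pass in that fit. It was at 41.2, 47.0, 43.7 and 41.0 CPM in WT-Sham and at 39.4, 55.7, 56.2 and 59.9 CPM in HCN4F-Sham replicates 1 to 4. With TAC it reached 75.5 and 79.4 CPM in WT and 108, 97.1, 94.9 and 70.7 CPM in HCN4F replicates 1 to 4. No TAC library overlapped with any Sham library, and 3 of 4 HCN4F-TAC libraries were above both WT-TAC libraries. The log2 fold change was 0.84 in WT (SE 0.15, interval 0.52 to 1.17, adjusted p = 0.0108, edgeR) and 0.81 in HCN4F hearts (SE 0.13, interval 0.54 to 1.08, adjusted p = 0.000844). The WT value no longer passed without WT-TAC replicate 3, where edgeR gave a log2 fold change of 0.81 (adjusted p = 0.167, with 6.28e-05 to 0.167 over all alternatives), or with the replicate number as a block (0.77, adjusted p = 0.0504). The immediate early gene sum, given above, was higher in HCN4F-Sham and in both TAC groups than in WT-Sham. Adamts1 overlapped between the Sham groups. The part of the immediate early response in the Adamts1 values was not tested.

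Adamts2 (chr11:50602084-50807573, plus strand), which removes the amino-terminal propeptide of fibrillar procollagens, was at 29.0, 26.3, 27.4 and 29.6 CPM in WT-Sham and 26.6, 33.8, 27.2 and 25.2 CPM in HCN4F-Sham replicates 1 to 4. It was at 37.4 and 30.1 CPM in WT-TAC and at 50.1, 55.0, 35.1 and 50.4 CPM in HCN4F-TAC replicates 1 to 4. The HCN4F-TAC libraries were above both Sham groups, and replicate 3 was again the lowest of them, below WT-TAC replicate 2. The log2 fold change was 0.76 in HCN4F hearts (SE 0.12, interval 0.49 to 1.02, adjusted p = 0.00105, edgeR) and 0.26 in WT hearts (SE 0.15, interval -0.06 to 0.58, adjusted p = 0.325). The WT value rested on its 2 TAC libraries, at 0.10 without replicate 2 and 0.42 without replicate 3.

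**Figure D3:**
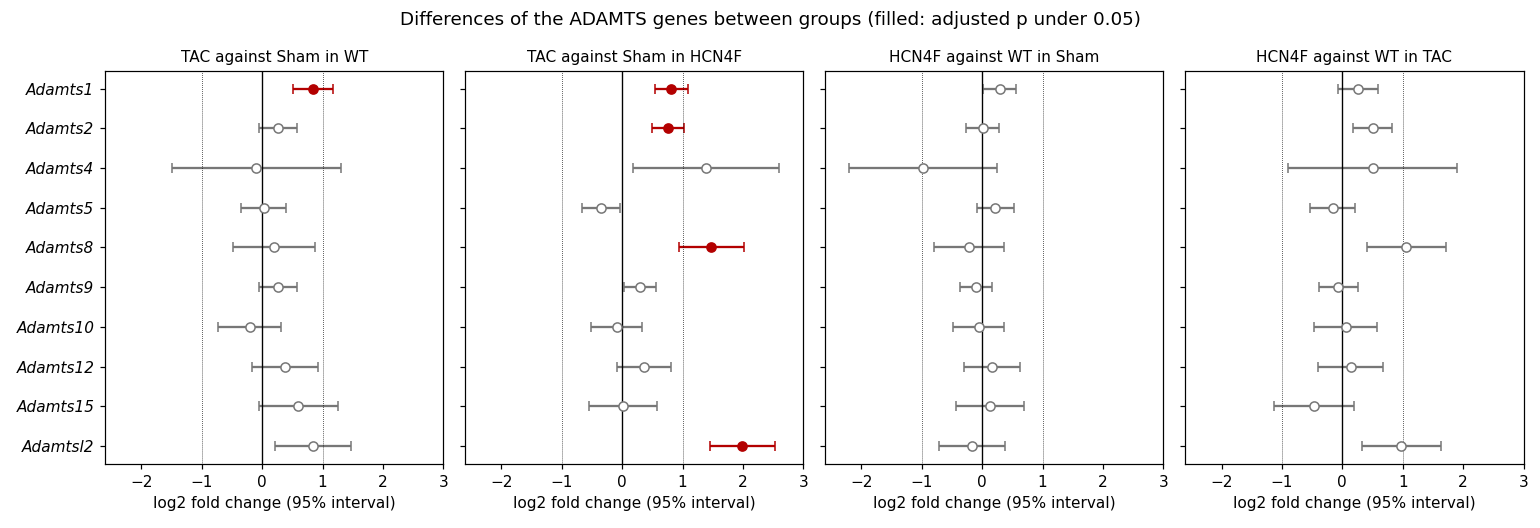
Log2 fold changes of the 10 genes in the 4 comparisons, with 95% intervals from the edgeR fit; filled red points passed at an adjusted p under 0.05, and dotted lines mark a log2 fold change of 1 and -1. Red points are Adamts1 in the WT panel and Adamts1, Adamts2, Adamts8 and Adamtsl2 in the HCN4F panel of TAC against Sham, and there are none in the genotype panels.

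The other proteoglycanases did not pass. Adamts5 (chr16:85856173-85901828, minus strand), the main aggrecanase of mouse cartilage and the neighbour of Adamts1, was at 23.7 to 32.3 CPM in WT-Sham, 28.4 to 44.6 in HCN4F-Sham, 28.7 and 29.2 in WT-TAC and 21.0 to 30.4 in HCN4F-TAC. Its log2 fold change after TAC was -0.35 in HCN4F hearts (SE 0.15, adjusted p = 0.121, edgeR), the lowest of the 10, and 0.02 in WT hearts (SE 0.18, adjusted p = 0.962). Without HCN4F-Sham replicate 2, the library at 44.6 CPM, the HCN4F value was -0.18 (adjusted p = 0.341, edgeR). With all libraries the intervals ended at -0.05 and 0.40, so that a rise of the size seen for Adamts1 lay outside both. Adamts9 (chr6:92772699-92943492, minus strand), a versicanase of developing heart, ranged from 22.4 to 41.3 CPM over all libraries. It had log2 fold changes of 0.30 (SE 0.12, adjusted p = 0.128, edgeR) in HCN4F and 0.26 (SE 0.15, adjusted p = 0.327) in WT hearts. The first was 0.19 without HCN4F-TAC replicate 4, and the second 0.15 without WT-Sham replicate 4 or without WT-TAC replicate 3.

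Adamts15 (chr9:30899155-30922452, minus strand), the neighbour of Adamts8, did not pass in any comparison. It was at 6.54 to 8.73 CPM in the 8 Sham libraries, at 6.08 and 15.3 CPM in WT-TAC replicates 2 and 3, and at 8.71, 4.84, 10.9 and 7.00 CPM in HCN4F-TAC replicates 1 to 4. The log2 fold change of 0.60 in WT hearts (SE 0.31, adjusted p = 0.271, edgeR) rested on WT-TAC replicate 3 and was -0.23 without it. In HCN4F hearts it was 0.02 (SE 0.26, interval -0.54 to 0.58, adjusted p = 0.975).

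Adamts4 (chr1:171250421-171260637, plus strand), an aggrecanase induced by inflammatory signals in many tissues, had the largest spread within a group relative to its mean. It was at 3.25, 3.34, 3.21 and 2.32 CPM in WT-Sham and at 3.69, 1.55, 0.506 and 0.483 CPM in HCN4F-Sham replicates 1 to 4, where the SD was 96.7% of the mean. In the TAC libraries it was at 2.51 and 3.12 CPM in WT and at 2.99, 3.00, 2.51 and 7.65 CPM in HCN4F replicates 1 to 4. HCN4F-Sham replicate 1 lay above the WT-Sham libraries and the other 3 lay below them. The log2 fold change between HCN4F-TAC and HCN4F-Sham was 1.39 (SE 0.56, adjusted p = 0.122, edgeR) and became 2.32 (adjusted p = 0.00712, with 0.00712 to 0.316 over all alternatives) without HCN4F-Sham replicate 1. Without HCN4F-TAC replicate 4, the library at 7.65 CPM, it was 0.89 (adjusted p = 0.316, edgeR).

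The members outside the proteoglycanase group other than Adamts2 and Adamtsl2 gave no passing value. Adamts10 (chr17:33524204-33553782, plus strand), which binds fibrillin and is mutated in Weill-Marchesani syndrome, ranged from 12.5 to 23.8 CPM, with log2 fold changes after TAC of -0.09 in HCN4F (SE 0.20, adjusted p = 0.800, edgeR) and -0.21 in WT hearts (SE 0.24, adjusted p = 0.658). With 1 library left out at a time, the WT value of Adamts10 ran from -0.30 to -0.12. Adamts12 (chr15:11064790-11349231, plus strand), which can cleave cartilage oligomeric matrix protein, ranged from 1.08 to 2.44 CPM. Its log2 fold changes were 0.36 (SE 0.21, adjusted p = 0.291, edgeR) and 0.38 (SE 0.26, adjusted p = 0.403). Without HCN4F-TAC replicate 4, the library at 2.44 CPM, the first was 0.17 (adjusted p = 0.658, edgeR). The libraries of both genes overlapped between the groups in each of the 4 comparisons.

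Groups that do not overlap were counted as well. In HCN4F hearts 4 of 10 genes had every TAC library above every Sham library, against 7.95% of all tested genes. In WT hearts the count was also 4 (Adamts1, Adamts2, Adamts9 and Adamtsl2), but with 2 TAC libraries 19.2% of all tested genes separated in this way.

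The second question was whether the genotypes differed, in Sham hearts and after TAC. In Sham hearts none of the 10 genes passed, where 0.471% of all tested genes passed in either direction, and 1 member was past an unadjusted p of 0.05, as were 15.2% of all tested genes. That gene was Adamts1, with a log2 fold change of 0.29 (SE 0.13, interval 0.02 to 0.56, adjusted p = 0.301, edgeR). It became 0.41 with an adjusted p of 0.0497 without HCN4F-Sham replicate 1, the library at 39.4 CPM, and the adjusted p reached 0.549 under other alternatives. The largest Sham difference in size was that of Adamts4, at -0.99 (SE 0.56, adjusted p = 0.435, edgeR), which became -1.92 (adjusted p = 0.0472, with up to 0.669 under other alternatives) without the same library and -0.66 (adjusted p = 0.667) without HCN4F-Sham replicate 4. For the other 8 genes the log2 differences lay between -0.22 and 0.22 with all libraries. With 1 library left out they reached -0.36 for Adamts8 and -0.33 for Adamtsl2 (without HCN4F-Sham replicate 2) and 0.31 for Adamts12 (without WT-Sham replicate 3).

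After TAC none of the 10 passed between genotypes in edgeR either with the filter on low counts and all libraries, where 0.111% of all tested genes passed in either direction, and 3 were past an unadjusted p of 0.05, as were 12.5% of all tested genes. Adamts8 was higher in all 4 HCN4F-TAC libraries than in both WT-TAC libraries, a separation that 11.3% of tested genes showed in this direction, with a log2 difference of 1.06 (SE 0.31, interval 0.41 to 1.71, adjusted p = 0.174, edgeR). Adamtsl2 differed by 0.98 (SE 0.30, interval 0.33 to 1.63, adjusted p = 0.216) and Adamts2 by 0.50 (SE 0.15, interval 0.17 to 0.83, adjusted p = 0.192). With all libraries, DESeq2 gave Adamtsl2 a log2 difference of 0.97 and an adjusted p of 0.0234, and edgeR with no filter gave Adamts8 one of 1.04 and an adjusted p of 0.0436. For Adamtsl2 and Adamts2, HCN4F-TAC replicate 3 overlapped with the WT-TAC libraries. Without that library the log2 differences were 1.24 (adjusted p = 0.0214, edgeR) for Adamts8, 1.20 (0.00129) for Adamtsl2 and 0.62 (0.0111) for Adamts2, and the number of all genes called in this comparison went from 11 to 158. Under other alternatives the adjusted p rose to 0.767, 0.762 and 0.559 for these 3 genes. Adamts1 differed by 0.26 (SE 0.16, interval -0.07 to 0.59, adjusted p = 0.525, edgeR).

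An interaction term tested whether TAC acted to a different extent in HCN4F and WT hearts. It passed for none of the 15292 genes (0%), with a smallest adjusted p of 0.168 in edgeR, although 1418 genes (9.27%) were past an unadjusted p of 0.05. DESeq2 found an interaction for 37 genes, edgeR without a filter for 17 and edgeR without HCN4F-TAC replicate 3 for 78, with 0, 0 and 1 of the 10 members among them. Among the members 3 were past that unadjusted level: Adamts8 with a difference of 1.28 between the log2 fold changes (SE 0.41, interval 0.41 to 2.15, adjusted p = 0.439, edgeR), Adamtsl2 with 1.14 (SE 0.39, interval 0.30 to 1.99, adjusted p = 0.466) and Adamts2 with 0.50 (SE 0.20, interval 0.08 to 0.91, adjusted p = 0.487). For Adamts1 the difference was -0.03 (SE 0.20, interval -0.46 to 0.40). Without HCN4F-TAC replicate 3 Adamtsl2 passed, with a difference of 1.36 and an adjusted p of 0.0162 in edgeR, against up to 0.709 under other alternatives. With all libraries, the TAC responses of the genotypes did not differ past the threshold for any member.

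Among the HCN4F-TAC libraries, Adamtsl2, Adamts8 and Adamts2 had their highest and lowest values in the same libraries as markers of activated fibroblasts. The summed level of Postn, Cilp, Meox1, Thbs4 and Cthrc1, which mark the matrix-producing state of cardiac fibroblasts, was 203, 343, 90.6 and 235 CPM in HCN4F-TAC replicates 1 to 4. It was 64.2 and 68.9 CPM in WT-TAC, 40.8 to 46.6 CPM in WT-Sham and 38.4 to 52.5 CPM in HCN4F-Sham. Replicate 2 was the highest and replicate 3 the lowest of the HCN4F-TAC libraries for this sum, for Adamtsl2, for Adamts8 and for Adamts2, whereas Adamts1 was highest in replicate 1 and lowest in replicate 4. All 5 markers were called higher after TAC in HCN4F hearts (median log2 fold change 2.18), beside 1.58% of all tested genes. In WT hearts, with 2 TAC libraries, 0 of 5 passed (median 0.42), beside 2.92% of all tested genes as higher. With all libraries, 0 of the 5 passed for the interaction in edgeR. Cthrc1 had 0 to 29 reads per library. The share of counts from mitochondrial genes ran the other way, at 17.3%, 13.9%, 18.6% and 16.8% in HCN4F-TAC replicates 1 to 4. Replicate 2 had the lowest share of the 14 libraries and replicate 3 the highest of its group, with 18.4% and 20.0% in WT-TAC and 17.1% to 23.1% in the Sham libraries. The part of the markers and of this share in the ADAMTS values was not tested.

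General fibroblast markers were summed in the same way. The sum of 6 such genes was 413 to 440 CPM in WT-Sham, 401 to 495 in HCN4F-Sham, 333 and 371 in WT-TAC and 417 to 539 in HCN4F-TAC. Of the 6, Lum and Pcolce passed as higher in HCN4F hearts after TAC (log2 fold changes 0.51 and 0.53), and Dpt passed as lower in WT hearts (-0.47). Cardiomyocyte markers moved as well. The sum of 6 such genes was 43358 to 54581 CPM in HCN4F-TAC and 59284 and 59301 CPM in WT-TAC, below the 58065 to 63013 CPM of HCN4F-Sham and the 64203 to 66390 CPM of WT-Sham respectively. In HCN4F hearts Myh6, Tnnt2 and Myl2 passed as lower (log2 fold changes -0.27, -0.23 and -0.30) and Actn2 as higher (0.30), and in WT hearts Tnnt2 passed as lower (-0.39) and Actn2 as higher (0.37). The part of these changes in the ADAMTS values was not tested. No endothelial, smooth muscle, pericyte or macrophage marker passed in either TAC comparison, although some sums moved with the groups. The sum of 4 smooth muscle genes was 290 to 408 CPM in WT-Sham, 183 to 347 in HCN4F-Sham, 201 and 215 in WT-TAC and 120 to 261 in HCN4F-TAC, with a median log2 fold change of -0.67 in WT and -0.19 in HCN4F hearts. The sum of 5 pericyte genes was 882 to 980 CPM in WT-Sham, 807 to 1073 in HCN4F-Sham, 1035 and 1104 in WT-TAC and 822 to 1022 in HCN4F-TAC. Endothelial genes summed to 748 to 896, 619 to 1164, 713 and 936, and 818 to 892 CPM in the same order of groups, and macrophage genes to 102 to 117, 98.8 to 128, 96.3 and 99.6, and 96.9 to 157 CPM. Their part in the ADAMTS values was not tested either. Without HCN4F-TAC replicate 2, the library with the atrial markers, the log2 fold changes in HCN4F hearts were 1.79 for Adamtsl2 (adjusted p = 0.000748, edgeR) and 1.29 for Adamts8 (adjusted p = 0.00652).

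**Figure D4:**
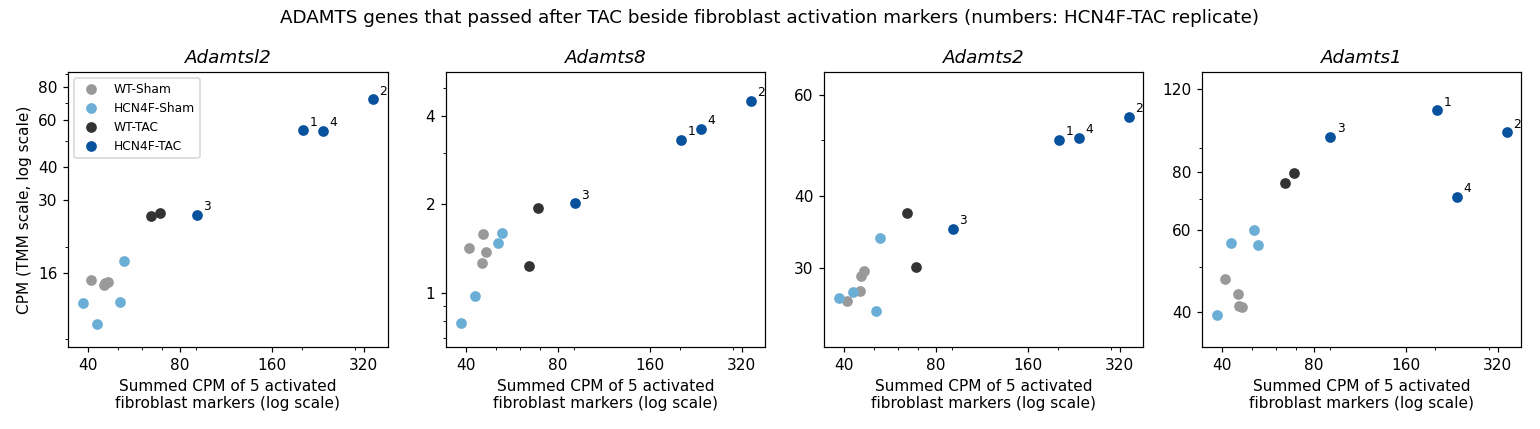
CPM of Adamtsl2, Adamts8, Adamts2 and Adamts1 in each library against the summed CPM of 5 activated fibroblast markers, both axes logarithmic, with HCN4F-TAC replicates numbered. Replicate 3 lies near the WT-TAC libraries in the first 3 panels, at a marker sum of 90.6 CPM, and replicate 2 is at the upper right with 343 CPM.

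Over all 14 libraries, the tested genes whose log2 CPM followed Adamtsl2 most closely were P3h2, a collagen prolyl hydroxylase (Pearson's r = 0.978), Col5a2, a fibrillar collagen chain (0.975), and Cilp (0.973). For Adamts8 they were Cilp (0.951), Endod1 (0.949) and Msn, the membrane linker moesin (0.944). Among the members themselves the closest pairs were Adamts2 with Adamtsl2 (r = 0.959) and Adamts8 with Adamtsl2 (0.923), and the lowest value was that of Adamts5 with Adamtsl2 (-0.436). These values describe the same 14 libraries, which differ by group, and carry no test.

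Of the other 10 ADAMTS proteases of the mouse, 7 had enough reads for a test. In HCN4F hearts after TAC 1 of the 7 was called higher and 1 passed as lower, beside 1.58% and 6.41% of all tested genes. In WT hearts none of the 7 passed, beside 2.92% of all tested genes as higher and 1.62% as lower. Adamts20, a versicanase related to Adamts9, went from 0.350 ± 0.152 (SD, n = 4) to 0.845 ± 0.256 CPM (n = 4), with a log2 fold change of 1.25 (SE 0.34, adjusted p = 0.0202, edgeR), on 4 to 33 reads per library. Adamts7, which shares cartilage oligomeric matrix protein as a substrate with Adamts12, went from 19.6 ± 3.61 to 11.2 ± 3.81 CPM (SD, n = 4 each), a log2 fold change of -0.80 (SE 0.19, adjusted p = 0.0111). Adamts3 and Adamts14, the propeptidases related to Adamts2, had values of -0.18 and -0.36 (adjusted p = 0.564 and 0.391, edgeR). Adamts13, Adamts16 and Adamts18 had at most 3 reads in any library.

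Among the 6 other ADAMTS-like genes, none was called. After TAC, 1.58% of all tested genes were called higher in HCN4F hearts and 0.445% in WT hearts. By the adjusted p alone 2 of the 6 passed as higher in HCN4F hearts, beside 7.2%, and 1 in WT hearts, beside 2.92%. Adamtsl5 passed as higher in both genotypes, with log2 fold changes of 0.39 in WT (SE 0.10, adjusted p = 0.0461, edgeR) and 0.58 in HCN4F hearts (SE 0.09, adjusted p = 0.000430). Papln, which encodes papilin, passed in HCN4F hearts (0.52, SE 0.15, adjusted p = 0.0280), and its value in WT hearts was 0.55 (SE 0.18, adjusted p = 0.0875). The median over the 6 was 0.01 in HCN4F and 0.18 in WT hearts.

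Substrates and binding partners of ADAMTS proteins followed, as a list of 15 genes. Of the 13 tested, 10 passed as higher in HCN4F hearts after TAC, beside 7.2% of all tested genes, and 5 of them were called, beside 1.58%. Another 1 passed as lower, beside 6.41%, and the median log2 fold change was 0.99. In WT hearts 1 passed as higher, beside 2.92%, with a median of 0.22. The summed level of the list was 1983, 2259, 1271 and 2114 CPM in HCN4F-TAC replicates 1 to 4, 1223 and 1043 CPM in WT-TAC, 968 to 971 CPM in WT-Sham and 898 to 1207 CPM in HCN4F-Sham. HCN4F-TAC replicate 3 was thus nearer to the WT-TAC libraries than to the other 3 of its group. The called genes were Comp, cartilage oligomeric matrix protein (log2 fold change 3.18, SE 0.55), the proteoglycans Acan (1.55, SE 0.37), Vcan (1.38, SE 0.11) and Bgn (1.27, SE 0.18), and the collagen chain Col1a1 (1.14, SE 0.18). Vcan, versican, was the gene that passed in WT hearts (0.56, SE 0.13, adjusted p = 0.0301, edgeR), and it also passed between HCN4F-TAC and WT-TAC hearts (0.91, SE 0.14, adjusted p = 0.00619). Ltbp1, which encodes a latent TGF-beta binding protein, passed as lower in HCN4F hearts (-0.31, SE 0.10, adjusted p = 0.0441).

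For maturation, inhibition and clearance of ADAMTS proteins a list of 13 genes was used. Of the 12 tested, 2 passed as higher in HCN4F hearts after TAC, beside 7.2% of all tested genes, and 0 in WT hearts, with medians of 0.09 and 0.07. Timp1, a broad metalloproteinase inhibitor, was called higher (1.64, SE 0.45, adjusted p = 0.0297, edgeR), and Pofut2, which fucosylates thrombospondin repeats so that these proteins can be secreted, passed at 0.20 (SE 0.06, adjusted p = 0.0431). Timp3, the main tissue inhibitor of the aggrecanases, had a value of -0.18 (SE 0.20, adjusted p = 0.602), and Furin, which cleaves the propeptide, one of 0.06 (SE 0.09, adjusted p = 0.722).

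**Figure D5:**
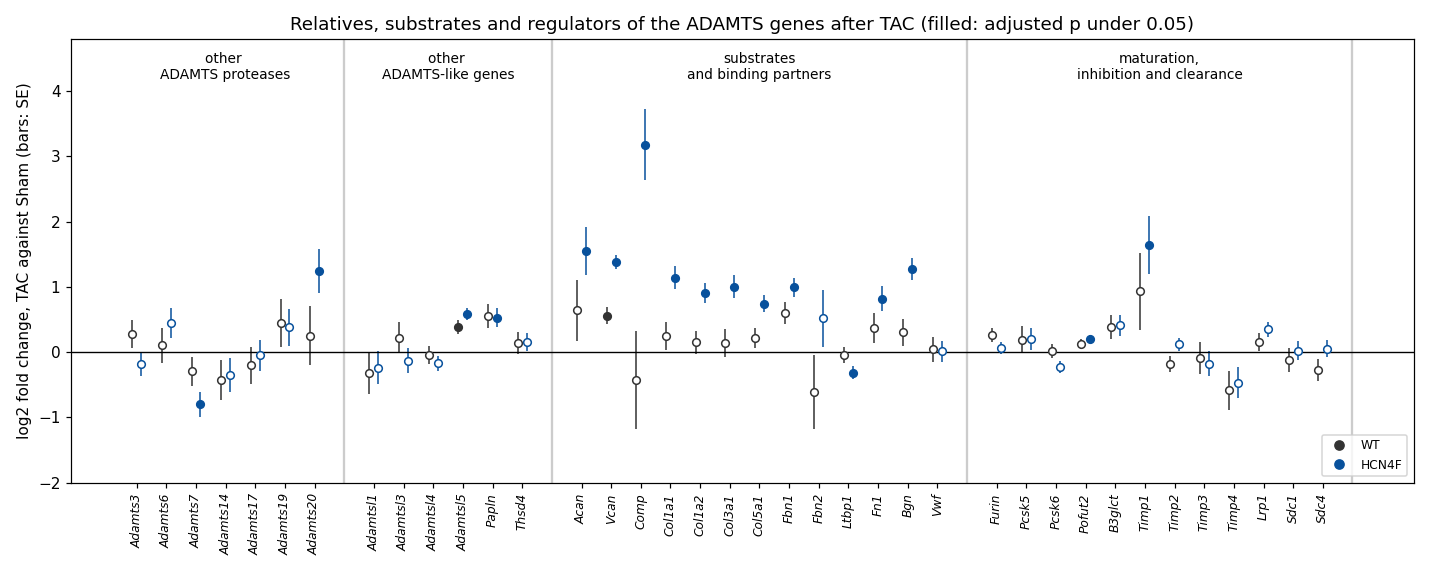
Log2 fold changes after TAC in WT (black) and HCN4F hearts (blue) for other ADAMTS proteases, other ADAMTS-like genes, substrates and binding partners, and genes of maturation, inhibition and clearance; bars are SE and filled points passed at an adjusted p under 0.05. Filled blue points gather among the substrates, led by Comp at 3.18, and 2 points are filled in black, Adamtsl5 and Vcan.

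A short stretch of promoter was read for 5 of the 10 genes, among them 3 that rose in HCN4F hearts after TAC (Adamts1, Adamts2 and Adamtsl2, without Adamts8). Of these 3, Adamts1 and Adamtsl2 held a TATA box there. The windows cover the 120 bases before the RefSeq start in the promoters of GRCm38.p6, read on the strand of the gene, and capitals mark the letters TATAAA.
Adamts1 (chr16:85803114-85803233, minus strand): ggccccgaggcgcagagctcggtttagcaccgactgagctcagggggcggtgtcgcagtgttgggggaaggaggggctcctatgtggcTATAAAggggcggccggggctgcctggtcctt
Adamtsl2 (chr2:27079259-27079378, plus strand): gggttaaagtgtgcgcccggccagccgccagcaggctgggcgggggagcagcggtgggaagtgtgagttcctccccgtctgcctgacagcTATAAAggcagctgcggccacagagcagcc
The letters start 32 bases before the start of Adamts1 and 30 bases before that of Adamtsl2. The windows of Adamts2, Adamts9 and Adamts12 did not contain them. For these 3 genes, unlike Adamts1 and Adamtsl2, no GENCODE transcript began with the 50 bases after the RefSeq start. On the gene's own strand, 4.19% of 32851 promoter windows of this length contained the motif. It was chosen after these promoters had been seen, and a match is a description of the letters.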

How the data were processed

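The deposited values are raw counts of reads per gene, which the authors had not normalized. The submitters' processing notes name the genome build GRCm38. Not given in the sources used here are the aligner, the counting program, the gene annotation and whether strand was used. Without strand, reads of genes that overlap on opposite strands cannot be told apart. Libraries were assigned to groups from the labels. The study describes 4 samples per group, and 2 of its WT-TAC samples were not analysed here. In the table, 2 columns are named in the manner of WT-TAC libraries but match the label of no sample used here, and they were left out.

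Of 49315 genes, filterByExpr in edgeR kept 15292 for testing. Counts were scaled with TMM in edgeR 4.0.16 (R 4.3.3), and values per library are CPM on that scale. For correlations, log2 CPM had a prior count of 2. A single model with the 4 group means gave the 4 comparisons and the interaction, by robust quasi-likelihood tests in edgeR whose p-values were adjusted by Benjamini-Hochberg over the genes tested. The threshold was an adjusted p under 0.05, with a log2 fold change above 1 or below -1 for a call. The interaction used the adjusted p alone. The steps were tested on simulated data.

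The genes named are the 10 members, the 3 tested genes with the highest Pearson's r to each called member, 4 lists of related genes, and marker lists for cell types and states. Cthrc1, Lum, Pcolce, Dpt and other genes singled out of the lists were chosen after their values were seen. The members and lists were chosen with earlier results of these data known. Of the gene IDs, 99.3% were found in GENCODE release M21 on GRCm38, which gave positions, exon lengths and coding sequences, and promoters came from RefSeq (GRCm38.p6).

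The alternatives were DESeq2 1.42.0, its size factors in edgeR, testing without any filter or with mean CPM of 1 as the minimum, non-robust estimation, a fit of the compared groups alone, the replicate number as a block, the adjusted p alone, and each library left out in turn. Libraries of 1 group differed by more than counting noise. Plots were made in Python 3.11.15 with matplotlib 3.10.9.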

Additional observations from a re-analysis of the deposited data

Results flagged for a closer look

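The highest or lowest library of a group of 4 was marked where its gap to the nearest library took a share of the group's range above Dixon's 95% critical value. Of 30 groups looked at, 5 were marked, and chance marks about 1 in 20. Adamts4 was at 2.32 CPM in WT-Sham replicate 4, with the other 3 at 3.21 to 3.34 CPM, and at 7.65 CPM in HCN4F-TAC replicate 4, with the other 3 at 2.51 to 3.00 CPM. Adamts12 was at 1.61 CPM in WT-Sham replicate 3, against 1.11 to 1.12 CPM in the others, and at 2.44 CPM in HCN4F-TAC replicate 4, against 1.48 to 1.62 CPM. Adamts5 was at 44.6 CPM in HCN4F-Sham replicate 2, against 28.4 to 30.4 CPM in the others. None of these genes passed in any comparison with all libraries. In HCN4F-Sham replicate 2 the endothelial marker sum was also the highest of the 14 libraries, at 1164 CPM against 619 to 988 CPM in the other Sham libraries, and the fibroblast marker sum was the highest of the Sham libraries, at 495 against 401 to 441 CPM. The sum of 4 mesothelial markers was the highest of the 14 there, at 7.99 CPM, and the next highest, 2.85 CPM, in HCN4F-TAC replicate 4. The part of other cells in these values was not tested.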

How the results depend on the processing

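After TAC in HCN4F hearts 2 members were called under the alternatives with the fold threshold, except that Adamts4 made 3 without HCN4F-Sham replicate 1, and 4 passed by the adjusted p alone. In WT hearts 0 were called under these alternatives and 1 passed by the adjusted p alone. Leaving out 1 library at a time gave 0 to 1 called members between the Sham groups, 0 to 2 between the TAC groups and 0 to 1 with an interaction. The values of 1 and 2 came without HCN4F-Sham replicate 1 (Adamts4) and without HCN4F-TAC replicate 3 (Adamts8 and Adamtsl2, and Adamtsl2 for the interaction). Without HCN4F-Sham replicate 1, the number of all genes called between the Sham groups went from 32 to 92. Without HCN4F-TAC replicate 3, that between the TAC groups went from 11 to 158, and that with an interaction from 0 to 78. With no filter on low counts 1 member, Adamts8, was called between the TAC groups (1.04, adjusted p = 0.0436, edgeR). The number of all genes called in this comparison went from 11 to 48 there.

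Of 920 alternative log2 values of single members, 873 kept their direction and their side of the threshold, 2 lost it, 12 passed it and 33 changed sign, each of the last from a value that had not passed. Over 18 same-numbered pairs the correlation of deviations ran from -0.12 to 0.16, beside -0.24 to 0.20 over the other pairs. Of 14 libraries, 5 correlated best with their own number. The deviations of the 2 WT-TAC libraries mirror each other, so these values cannot settle whether the replicate numbers pair the libraries. With the replicate number as a block, the adjusted p of Adamts1 in WT hearts became 0.0504 in edgeR (log2 fold change 0.77). The block also gave 0.18 for Adamts4 and -0.054 for Adamts5 after TAC in WT, -0.033 for Adamts15 after TAC in HCN4F, -0.00203 for Adamts2 between the Sham groups, -0.066 for Adamts10 between the TAC groups and 0.037 for the interaction of Adamts1. Between the Sham groups Adamts2 was at -0.00112 in DESeq2 and at -0.00163 with DESeq2's size factors.

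With 1 library left out at a time, the values after TAC in WT ran from -0.27 to 0.047 for Adamts4, -0.056 to 0.087 for Adamts5, -0.19 to 0.47 for Adamts8 and -0.23 to 1.10 for Adamts15. After TAC in HCN4F they ran from -0.23 to 0.066 for Adamts10 and -0.19 to 0.19 for Adamts15. Between the Sham groups they ran from -0.092 to 0.054 for Adamts2 and -0.22 to 0.079 for Adamts10. Between the TAC groups they ran from -0.00034 to 0.68 for Adamts4, -0.17 to 0.042 for Adamts9, -0.042 to 0.11 for Adamts10, -0.046 to 0.22 for Adamts12 and -0.96 to 0.37 for Adamts15, and for the interaction of Adamts1 from -0.15 to 0.080. Where a WT-TAC library was left out, the remaining 1 was assumed to vary like the other groups. The causes were not tested.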
